A study of Mus musculus with 12 samples.

Results

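The genes described here are 39 enzymes and related proteins of amino acid breakdown and the urea cycle in mouse liver, taken by name from a list and matched to the array's probe sets through the gene symbols of the platform annotation. Of the 39, 37 had a probe set that names 1 gene, out of 12393 such genes on the array. The only probe set of Ass1 lists several genes and was not used for it, and Gls2 is not analysed here. Kynu was too dim to be tested, with signals of 4.11 to 19.1 over the 12 mice, which left 36 members among 7217 genes tested.

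The 12 animals were female C57BL/6 mice, an inbred laboratory strain, and every replicate was a separate mouse with an array of its own. Vehicle mice received 100 µl of sesame oil under the skin, 2 times per week for 3 weeks, and testosterone mice received 0.9 mg of the androgen in the same oil on the same schedule. Livers came from 3 mice of each treatment at the end of the 3 weeks, and from 3 other mice of each treatment after a period without injections. The sample labels put that period at 12 weeks and the series' design text at 3 weeks, so its length is uncertain. The labels state the aim as setting short-term against long-term effects of the hormone on the female liver, and give no age for the mice.

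The liver is the main site where surplus amino acids are broken down. Aminotransferases move the amino group to glutamate or aspartate, glutamate dehydrogenase frees it as ammonia, and the urea cycle, which runs through the mitochondrion and the cytosol of hepatocytes, turns ammonia into urea for excretion. The remaining carbon skeletons enter energy metabolism or glucose synthesis by separate routes for the aromatic, branched-chain, sulfur-containing and smaller amino acids. Methionine breakdown also supplies S-adenosylmethionine, the methyl donor of the cell, and cysteine, from which glutathione and taurine are made.

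Signals are linear array intensities that the submitters had scaled to the same trimmed mean on every array (100.05), with medians of 20.03 to 22.4. Within a group, pairs of arrays had correlations over probe sets of r = 0.979 to 0.989. The summed signal of 8 hepatocyte markers was 35020 to 37095 in vehicle mice and 36031 to 37005 in testosterone mice at the end, and 35490 to 38205 and 37968 to 44606 after withdrawal. The 12 macrophage markers summed to 4013 to 6313 in vehicle mice and 2864 to 3534 in testosterone mice at the end, where 7 of the 12 fell and 0 rose, and to 1941 to 3666 and 2388 to 2668 after withdrawal. Of 11 exocrine pancreas markers only 2 were bright enough to be tested, and the 11 summed to 233 to 264 against 325 to 395 at the end and 125 to 223 against 345 to 1688 after withdrawal, vehicle first. Most of the sum at the end was Cela1, at 164, 191 and 209 against 320, 270 and 344. Cela2a, the other one tested, read 52.1, 12 and 13 against 13.7, 13.9 and 15.1 at the end. After withdrawal Cela2a read 12.7, 11 and 6.94 against 103, 244 and 10.8. Of 2 erythroid markers only 1, Alas2, was bright enough to be tested, and it made up most of their sum. The 2 summed to 61.7 to 108 against 258 to 328 at the end and 60.4 to 113 against 252 to 344 after withdrawal. The ratio of 3' to 5' beta-actin signal, a measure of RNA integrity, was at the end of treatment 2.11 ± 0.0769 (SD, n = 3) under testosterone and 1.52 ± 0.108 under vehicle (two-sided exact permutation p = 0.1, the smallest that 3 against 3 mice allow). After withdrawal it was 1.62 ± 0.179 against 1.77 ± 0.154 (exact permutation p = 0.2). The 6 endothelial markers summed to 853 to 1010.4 in vehicle and 729 to 803 in testosterone mice at the end, where 1 of the 6 fell (Stab2), and the 8 stellate markers to 2135 to 2325 against 1846 to 1962 after withdrawal, where 0 of the 5 tested were called. The part of the macrophage, pancreas, erythroid, endothelial and stellate markers in the results below was not tested, and in whole liver fewer cells of a type cannot be told apart from less RNA per cell.

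At the end of treatment testosterone livers gave lower array signals for enzymes of amino acid breakdown, with at least 1 decrease in each pathway of the list and 1 decrease of more than 2-fold. Of the 36 members tested, 13 fell and 0 rose: Asl of the urea cycle, Fah and Haao of aromatic amino acid breakdown, the aminotransferases Got1 and Gpt, proline dehydrogenase Prodh, Cth and Mat1a of the sulfur pathway, Bckdhb and Ivd of branched-chain breakdown, Agxt and Shmt1 of glycine and serine metabolism, and the glutathione transferase Gstk1. A gene was called where limma's moderated test, run on log2 signals of all 7217 genes, gave a Benjamini-Hochberg adjusted p under 0.05. Over all genes 17.4% were called in this comparison and 8.01% were called lower. The members' median log2 change, testosterone minus vehicle, was -0.15 and 30 of 36 were negative, against a median of 0.04 over all genes. At an unadjusted p under 0.05, 18 of the 36 differed, as did 2313 of all 7217 genes. In 15 of 36 members every testosterone mouse lay below every vehicle mouse, against 15.1% of all genes.

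**Figure D1:**
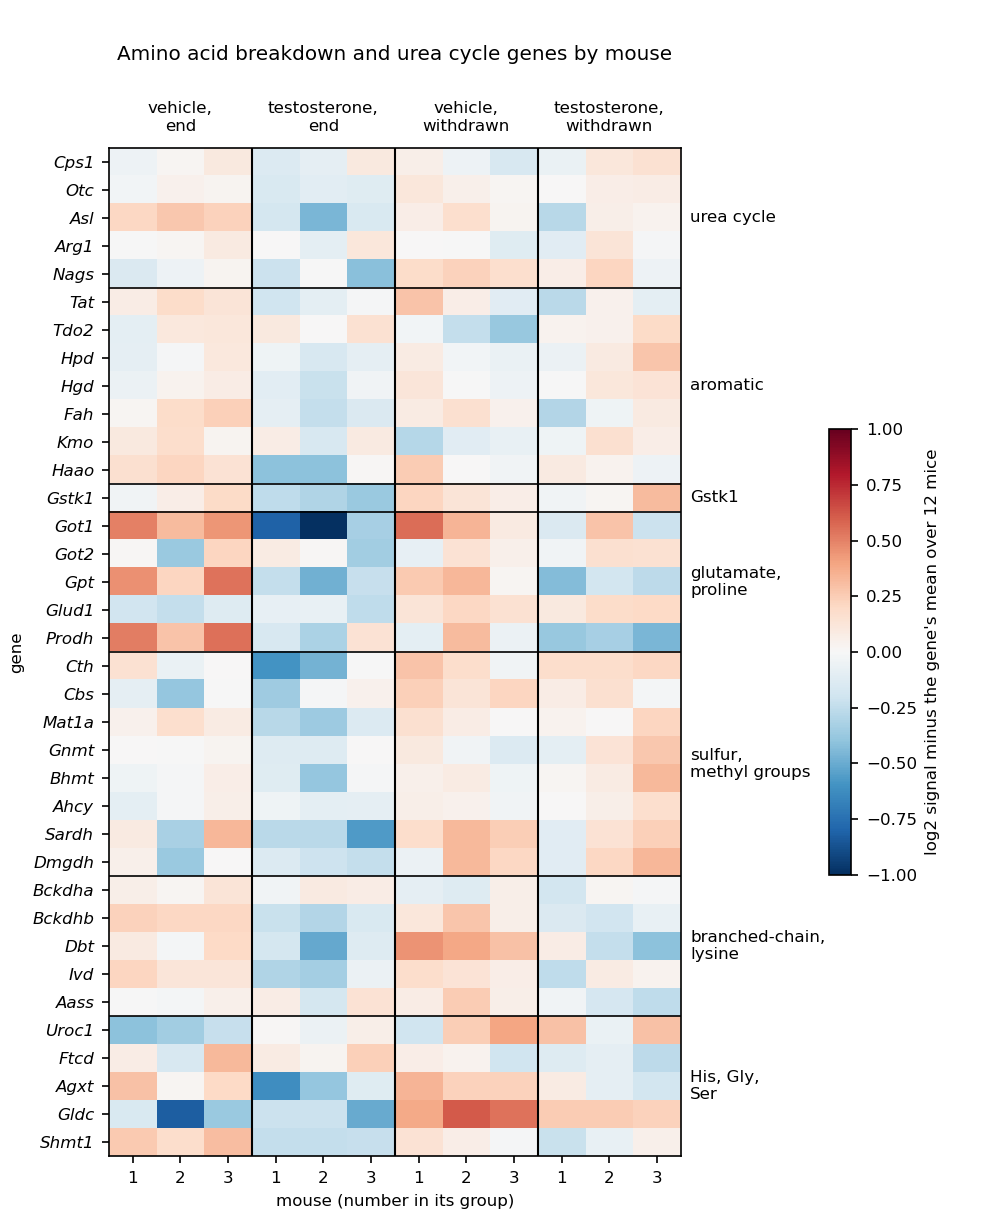
Log2 signal of each of the 36 tested members (rows, grouped by pathway) in each of the 12 mice (columns, grouped by treatment and time), minus that gene's mean over all mice, with blue below and red above the mean on a scale from -1 to 1. In the testosterone end columns most rows are blue, with Got1 the darkest, and the Gldc row is blue in all end columns and red in all withdrawn columns.

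The lower signals were seen in each testosterone mouse of the end of treatment. Testosterone mice 1, 2 and 3 of that time had 22, 25 and 19 of the 36 members below all 3 vehicle mice, a count not made over all genes. Their median log2 distance from the vehicle mean over the members was -0.16, -0.23 and -0.13, against 0.04, 0.07 and 0.03 over all genes. Of the 13 calls, 9 held without any of the 6 mice of this time in turn: Asl, Gstk1, Got1, Gpt, Prodh, Mat1a, Bckdhb, Agxt and Shmt1. Fah lost its call without each of 5 mice, vehicle mice 2 and 3 and every testosterone mouse (log2 change -0.34 to -0.26, adjusted p at least 0.0543). Cth lost it without each of 5 mice too, every vehicle mouse and testosterone mice 1 and 2 (-0.44 to -0.27, adjusted p at least 0.0507). Haao lost it without testosterone mouse 1 or 2 (-0.37 in each case, adjusted p at least 0.0621), and Ivd without vehicle mouse 1 or testosterone mouse 1 or 2 (-0.35 to -0.33, adjusted p at least 0.0747). The actin ratio did not overlap between the groups compared here, so RNA integrity and treatment cannot be told apart at this time. With the ratio as a covariate in the limma fit, 0 members and 78 of all genes were called. All 13 changes stayed negative (-0.90 to -0.07), with adjusted p at least 0.293. Those of Fah, Gstk1 and Ivd shrank to -0.07, -0.08 and -0.13. With each array centred on its median instead, 8 members were called, and Got1 alone passed at 2-fold.

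Promoter windows of RefSeq (GRCm38.p6; 250 bases before to 50 after a transcript's start) were given for 30 of the 37 members, 31 windows in all, and for 9 of the 13 that fell. The windows of 4 genes that fell are shown without their last 50 bases: Got1, with the largest decrease, at chr19:43524606-43524855 on the minus strand, Prodh at chr16:18089191-18089440 on the minus strand, Ivd at chr2:118861744-118861993 on the plus strand and Agxt at chr1:93134990-93135239 on the plus strand. Each is read 5′ to 3′ towards the gene, and capitals mark a match to one of the motifs searched, of which the stretch of Got1 holds none. Prodh, Ivd and Agxt each hold a match, and as picked examples these windows do not show how common the motifs are.
Got1: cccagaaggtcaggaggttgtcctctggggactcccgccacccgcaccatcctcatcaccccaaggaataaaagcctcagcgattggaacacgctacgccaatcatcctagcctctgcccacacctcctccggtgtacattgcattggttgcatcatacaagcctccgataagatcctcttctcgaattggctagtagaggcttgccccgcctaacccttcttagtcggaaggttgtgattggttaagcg
Prodh: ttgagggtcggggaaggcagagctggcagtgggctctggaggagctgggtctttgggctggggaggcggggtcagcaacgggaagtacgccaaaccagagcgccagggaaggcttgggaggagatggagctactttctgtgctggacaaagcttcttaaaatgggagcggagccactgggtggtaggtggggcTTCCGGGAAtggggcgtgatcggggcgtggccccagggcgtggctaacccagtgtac
Ivd: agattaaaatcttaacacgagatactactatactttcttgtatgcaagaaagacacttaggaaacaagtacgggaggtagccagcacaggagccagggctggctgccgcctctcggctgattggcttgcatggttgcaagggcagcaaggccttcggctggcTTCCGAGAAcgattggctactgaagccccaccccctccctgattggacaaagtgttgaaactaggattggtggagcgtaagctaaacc
Agxt: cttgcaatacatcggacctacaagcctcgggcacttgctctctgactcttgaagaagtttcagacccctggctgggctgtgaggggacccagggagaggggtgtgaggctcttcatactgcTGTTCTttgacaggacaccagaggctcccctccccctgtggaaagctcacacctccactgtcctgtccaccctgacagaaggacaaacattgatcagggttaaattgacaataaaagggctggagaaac
The motifs were TTCNNNGAA (the core bound by STAT factors), TGTTCT (part of the site of steroid receptors, the androgen receptor among them), TTGCNNAA (C/EBP factors), TGACGTCA (CREB and related factors) and CAAAGTCCA (HNF4). Each was searched for by itself on both strands. The STAT core was in 2 of the members' 31 windows (6.45%), against 8.3% of all 32851 windows in the reference. The 2 were those of Prodh (positions -57 to -49 from the start) and Ivd (-88 to -80). The steroid receptor letters TGTTCT were in 4 windows (12.9%), Agxt (-129 to -124), Haao, Bckdhb and Kmo, against 19.0% of all windows. The C/EBP motif was in 2 windows (6.45%), Aass and Hgd, against 10.8%. The CREB and HNF4 motifs were in 0 of 31, against 1.79% and 0.475%. A match describes these letters only, and binding was not measured.

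In the urea cycle 1 of the 5 tested members fell at the end, and it was the enzyme that splits argininosuccinate. The signal of Asl was 1918, 1995 and 1947 in vehicle mice and 1466, 1207 and 1489 in testosterone mice. The groups did not overlap, and Asl fell 1.41-fold (log2 change -0.50 ± 0.10, adjusted p = 0.00348). After withdrawal Asl read 1735, 1863 and 1688 in vehicle mice and 1370.2, 1726 and 1697 in testosterone mice, with testosterone mouse 1 alone below the vehicle range (log2 change -0.15 ± 0.10, adjusted p = 0.418). The other 4 were not called at the end. Cps1, which fixes ammonia as carbamoyl phosphate, had a log2 change of -0.07 ± 0.08 and did not pass the test (adjusted p = 0.619). Arg1, which releases urea from arginine, read 3848 ± 126 in vehicle and 3784 ± 274 in testosterone mice (mean ± SD, n = 3, log2 change -0.03 ± 0.07, adjusted p = 0.843). Otc, which forms citrulline, read 1964, 2059.9 and 2032 against 1800.5, 1859.8 and 1841, without overlap and without passing the test (log2 change -0.14 ± 0.06, adjusted p = 0.134). Nags makes the cofactor that Cps1 needs, and its signals of 192, 205 and 217 and 183, 212 and 159.5 overlapped (log2 change -0.16 ± 0.11, adjusted p = 0.373).

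The largest decreases of the list were in the enzymes that move amino groups and in proline breakdown, where 3 of 5 tested members fell at the end. Got1, the cytosolic aspartate aminotransferase, read 1732, 1526 and 1667 in vehicle mice and 701, 599 and 970.5 in testosterone mice. No testosterone mouse came near the vehicle range, and Got1 fell 2.21-fold (log2 change -1.15 ± 0.17, adjusted p = 0.000345). After withdrawal the signals were 1807, 1551 and 1301 in vehicle and 1111, 1489 and 1053 in testosterone mice, which overlapped through testosterone mouse 2 (log2 change -0.35 ± 0.17, adjusted p = 0.242).

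Gpt, the alanine aminotransferase that hands nitrogen from alanine to glutamate, was lower at both times. Its signals were 1380.2, 1169 and 1465 in vehicle against 856, 723 and 857 in testosterone mice at the end, and 1205, 1267 and 1019 against 744, 886 and 841 after withdrawal. All testosterone mice were below all vehicle mice at either time, and Gpt fell 1.65-fold (log2 change -0.72 ± 0.11, adjusted p = 0.000556) at the end and 1.41-fold (log2 change -0.50 ± 0.11, adjusted p = 0.0143) after withdrawal. Without vehicle mouse 2 of the withdrawal time the later change was -0.43 with an adjusted p of 0.0815. The probe set of Gpt has the suffix of sets whose probes can match transcripts of more than 1 gene, so the signal may not be of Gpt alone.

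Prodh, the first enzyme of proline breakdown, had signals of 1036, 884 and 1063 in vehicle and 649, 584 and 802 in testosterone mice at the end. It fell 1.47-fold (log2 change -0.56 ± 0.13, adjusted p = 0.0087), again without overlap. After withdrawal it read 677, 902 and 698 against 559.7, 578 and 529, with every testosterone mouse below every vehicle mouse and an adjusted p just above the threshold (log2 change -0.44 ± 0.13, adjusted p = 0.057). Got2, the mitochondrial aspartate aminotransferase, and Glud1, glutamate dehydrogenase, overlapped between treatments at the end (log2 change -0.04 ± 0.14, adjusted p = 0.884 for Got2 and log2 change 0.05 ± 0.07, adjusted p = 0.674 for Glud1). Another probe set of Got2 fell, however, when each probe set was tested by itself (-0.55 ± 0.15, adjusted p = 0.0230).

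**Figure D2:**
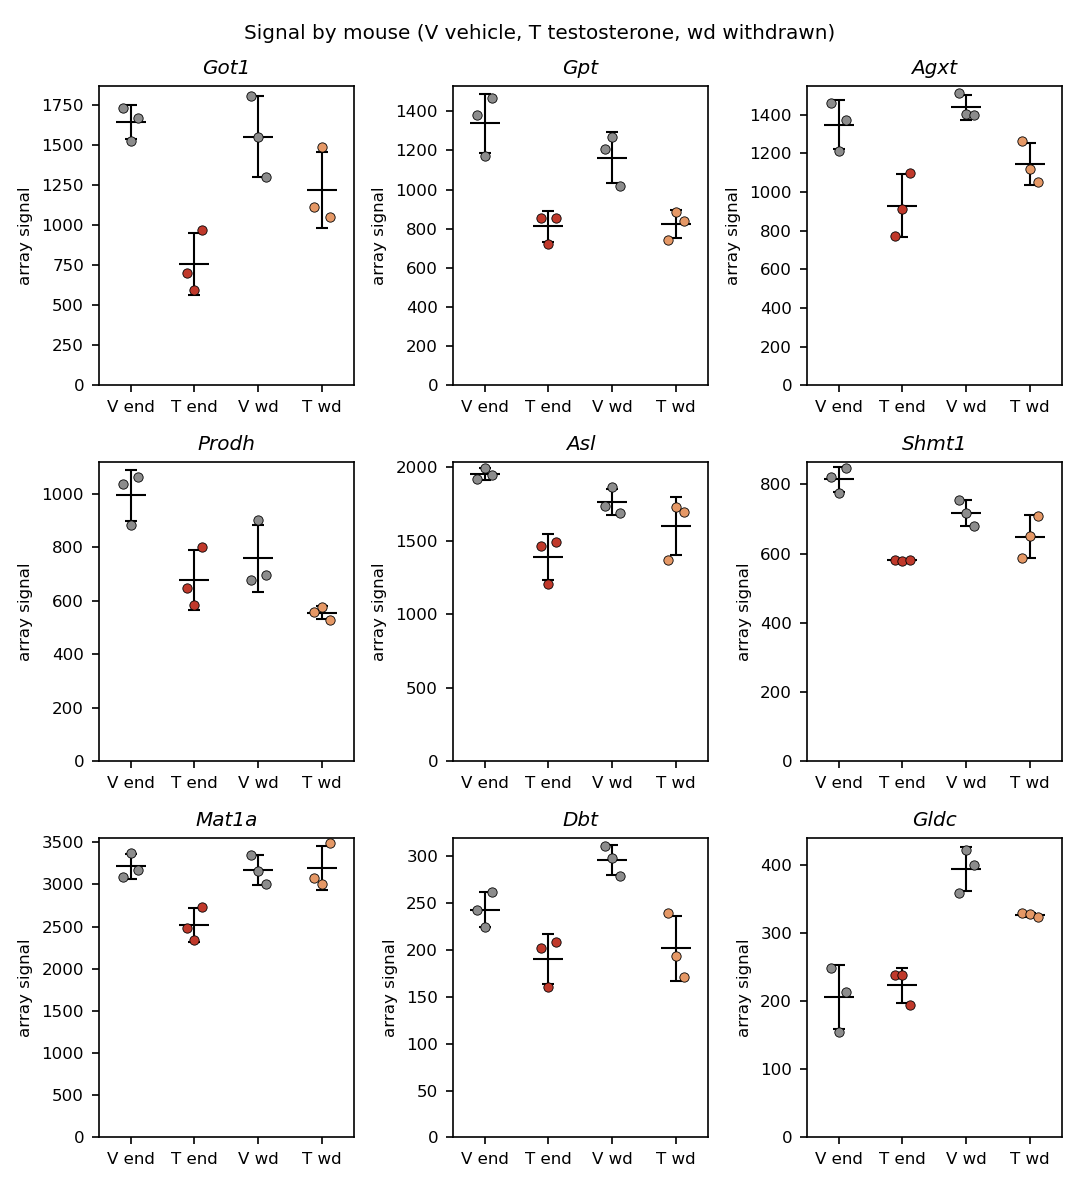
Array signal of 9 members in each mouse, 1 point per mouse, by group (V vehicle, T testosterone, end of treatment or wd withdrawn), with the group mean as a horizontal line and 1 SD as the error bar, on linear axes from 0. Got1, Gpt, Agxt, Prodh, Asl, Shmt1, Mat1a and Dbt are below all vehicle points of the same time in the T end group, Gpt, Agxt, Prodh, Dbt and Gldc are so in the T wd group, and Gldc is higher in both wd groups than in both end groups.

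In aromatic amino acid breakdown 2 of 7 tested members fell at the end, the last enzyme of the tyrosine route and a ring-opening enzyme of the tryptophan route. Fah, which completes tyrosine breakdown, read 2484, 2781 and 2888 in vehicle mice and 2304, 2079.9 and 2218 in testosterone mice at the end, and fell 1.23-fold (log2 change -0.30 ± 0.09, adjusted p = 0.0332). Haao, which opens the ring of hydroxyanthranilate in the kynurenine route of tryptophan, read 1464, 1519 and 1448 against 986, 986 and 1320.4 and fell 1.36-fold (log2 change -0.44 ± 0.11, adjusted p = 0.0128). Neither gene's groups overlapped at the end, and testosterone mouse 3 was nearest to vehicle for Haao. After withdrawal the treatments overlapped for both (log2 change -0.18 ± 0.09, adjusted p = 0.292 for Fah, log2 change -0.05 ± 0.11, adjusted p = 0.83 for Haao).

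The earlier steps did not pass the test at either time. Tat, which starts tyrosine breakdown, read 2717, 2935 and 2825 in vehicle and 2253, 2408 and 2566 in testosterone mice at the end, without overlap (log2 change -0.23 ± 0.10, adjusted p = 0.121). Hpd and Hgd, the dioxygenases between Tat and Fah, had log2 changes of -0.10 ± 0.08 (adjusted p = 0.426) and -0.14 ± 0.08 (adjusted p = 0.223). Kmo, a hydroxylase of the kynurenine route, had a log2 change of -0.10 ± 0.09 (adjusted p = 0.507). Tdo2, which opens the ring of tryptophan, was the member nearest to an increase after withdrawal. It read 3234, 2805 and 2537 in vehicle and 3386, 3411 and 3779.96 in testosterone mice then, without overlap and with an adjusted p above the threshold (log2 change 0.31 ± 0.09, adjusted p = 0.057). The other probe set of Tdo2, tested by itself, rose at both times (0.33 ± 0.10, adjusted p = 0.0366 at the end, and 0.50 ± 0.10, adjusted p = 0.0107 after withdrawal), so the 2 probe sets differ in their calls.

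Gstk1, a glutathione transferase of mitochondria and peroxisomes, is in the list without being an enzyme of tyrosine breakdown. It read 1068, 1149 and 1249 in vehicle and 918, 889.5 and 845 in testosterone mice at the end and fell 1.3-fold (log2 change -0.38 ± 0.10, adjusted p = 0.0133), without overlap. After withdrawal it read 1270.2, 1199 and 1149 against 1067, 1113 and 1361, which overlapped (log2 change -0.04 ± 0.10, adjusted p = 0.849).

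In the sulfur and methyl group pathway 2 of 8 members fell at the end and none was called after withdrawal. In the limma fit 0 of the 8 had an unadjusted p under 0.05 after withdrawal, against 1485 of all 7217 genes. Mat1a, which makes S-adenosylmethionine from methionine in hepatocytes, read 3093, 3376 and 3173 in vehicle and 2485, 2338 and 2731 in testosterone mice at the end. It fell 1.28-fold (log2 change -0.35 ± 0.08, adjusted p = 0.00716), without overlap. After withdrawal Mat1a read 3354, 3157 and 3006 and 3078, 3011 and 3492, fully overlapping (log2 change 0.01 ± 0.08, adjusted p = 0.968). Cth, which releases cysteine from cystathionine, read 2996, 2578 and 2701 against 1777, 1941 and 2689.5 at the end and fell 1.31-fold (log2 change -0.39 ± 0.12, adjusted p = 0.0425), although testosterone mouse 3 lay within the vehicle range.

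The other 6 members of this pathway were not called at the end. Gnmt, which methylates glycine, and Ahcy, which clears the product of methylation, had log2 changes of -0.09 ± 0.09 (adjusted p = 0.501) and -0.06 ± 0.06 (adjusted p = 0.585) at the end. Bhmt, which remakes methionine with betaine as methyl donor, had a log2 change of -0.18 ± 0.09 (adjusted p = 0.208). Sardh, which demethylates sarcosine, read 1151, 862 and 1358 in vehicle and 894, 895 and 731 in testosterone mice, with vehicle mouse 2 inside the testosterone range and an adjusted p just above the threshold (log2 change -0.40 ± 0.14, adjusted p = 0.063). Its other probe set fell when tested by itself (-0.61 ± 0.13, adjusted p = 0.00667). Cbs, which forms cystathionine, had a log2 change of 0.05 ± 0.11 (adjusted p = 0.794), and its other probe set one of -0.39 ± 0.15 (adjusted p = 0.0924). Dmgdh, the demethylase before Sardh, had a log2 change of -0.09 ± 0.13 (adjusted p = 0.695).

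Branched-chain amino acids are broken down by a mitochondrial dehydrogenase complex, of which Bckdhb was called at the end and Dbt after withdrawal, with no call of a difference between the times for either (log2 change 0.15 ± 0.12, adjusted p = 0.482 for Bckdhb and log2 change -0.21 ± 0.19, adjusted p = 0.56 for Dbt). Bckdhb, a subunit of the first enzyme of the complex, read 782, 769 and 769 in vehicle mice and 572, 544 and 599 in testosterone mice at the end. The testosterone mice were well below the narrow vehicle range, and Bckdhb fell 1.35-fold (log2 change -0.44 ± 0.08, adjusted p = 0.00247). After withdrawal Bckdhb read 719.99, 809 and 695 against 603, 583 and 632, still without overlap but just above the threshold (log2 change -0.29 ± 0.08, adjusted p = 0.0509). Dbt, the core subunit that carries the acyl group, read 311, 298 and 279 in vehicle and 239.98, 194 and 172 in testosterone mice after withdrawal and fell 1.48-fold (log2 change -0.57 ± 0.13, adjusted p = 0.0184). At the end Dbt read 243, 225 and 262 against 203, 160.2 and 208, without overlap and without passing the test (log2 change -0.36 ± 0.13, adjusted p = 0.0743). The call after withdrawal was lost without vehicle mouse 1 or 2 or testosterone mouse 2 or 3 of that time (-0.56 to -0.46, adjusted p at least 0.0554).

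Bckdha, the partner of Bckdhb in the same enzyme, read 364, 354 and 381 and 341, 371 and 368 at the end, which overlapped (log2 change -0.03 ± 0.09, adjusted p = 0.88). Ivd, the leucine-specific dehydrogenase after the complex, read 509, 479 and 477 in vehicle and 358, 348 and 421 in testosterone mice and fell 1.3-fold (log2 change -0.38 ± 0.10, adjusted p = 0.0212). Both probe sets of Ivd fell at the end when each was tested by itself (-0.38 ± 0.11 and -0.35 ± 0.11). Aass, which starts lysine breakdown, had a log2 change of -0.00 ± 0.09 at the end (adjusted p = 0.998). After withdrawal it read 1120.1, 1270.2 and 1107 in vehicle and 1038, 949 and 895 in testosterone mice, without overlap and without passing the test (log2 change -0.28 ± 0.09, adjusted p = 0.0954).

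Among the members of histidine, glycine and serine metabolism, Agxt and Shmt1 fell at the end, and Uroc1, Ftcd and Gldc were not called. Agxt, which converts glyoxylate to glycine in peroxisomes, read 1462, 1212 and 1374 in vehicle and 775, 913 and 1100.4 in testosterone mice at the end and fell 1.46-fold (log2 change -0.55 ± 0.12, adjusted p = 0.00526). After withdrawal it read 1512, 1404 and 1400.5 against 1264, 1121 and 1054, again with no overlap, and did not pass the test (log2 change -0.33 ± 0.12, adjusted p = 0.109). Shmt1, which interconverts serine and glycine in the cytosol, read 822, 774 and 846 in vehicle and 581, 579.9 and 582 in testosterone mice, a spread of under 2 signal units among the latter, and fell 1.4-fold (log2 change -0.49 ± 0.09, adjusted p = 0.00151). Of the 4 probe sets of Shmt1, 3 fell at the end when tested one by one, with log2 changes of -0.47 to -1.02, and the fourth had one of -0.19 ± 0.11 (adjusted p = 0.254). After withdrawal the set used for Shmt1 read 755, 716 and 679 in vehicle and 587, 649 and 710 in testosterone mice, which overlapped. The fourth set alone was called then, lower (-0.43 ± 0.11, adjusted p = 0.0434).

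Uroc1, the urocanase of histidine breakdown, was the tested member with the highest change at the end. It read 269, 282 and 306 in vehicle and 360.3, 344 and 373 in testosterone mice, without overlap, and did not pass the test (log2 change 0.33 ± 0.14, adjusted p = 0.112). Its other probe set, tested by itself, gave 0.06 ± 0.16 at the end (adjusted p = 0.817) and -0.49 ± 0.16 after withdrawal (adjusted p = 0.0974). Ftcd, which ends the histidine route, and Gldc, the decarboxylating subunit of the glycine cleavage system, overlapped between treatments at the end (log2 change 0.04 ± 0.11, adjusted p = 0.859 for Ftcd and log2 change 0.14 ± 0.14, adjusted p = 0.545 for Gldc).

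**Figure D3:**
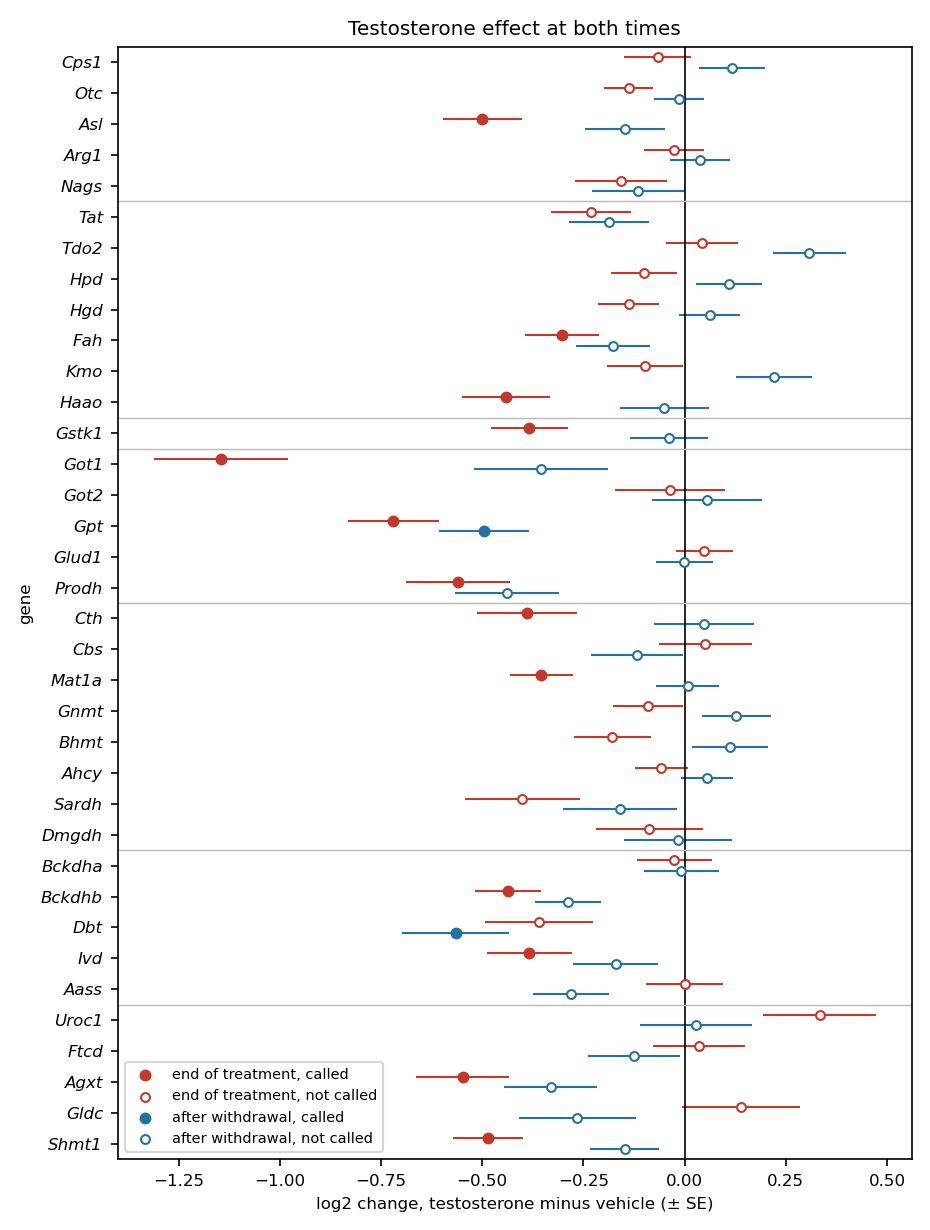
Log2 change, testosterone minus vehicle, of each tested member at the end of treatment (red) and after withdrawal (blue), with the standard error of the limma fit as a bar and filled points for called changes. Of the 13 filled red points all lie left of 0, Got1 farthest at -1.15, and the 2 filled blue points are Gpt and Dbt.

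After withdrawal the list as a whole lay close to vehicle. Of 36 members 2 fell, Gpt and Dbt, and 0 rose, where 6.00% of all genes were called in either direction and 3.26% were called lower, so the members' 5.56% is near the background. The median log2 change was -0.04, as it was over all genes, and 23 of 36 were negative. In 7 members every testosterone mouse was below every vehicle mouse, against 14.7% of all genes. Testosterone mice 1, 2 and 3 of this time had 21, 11 and 13 members below all 3 vehicle mice, a count not made over all genes. Without vehicle mouse 2 of this time 0 members were called, and without vehicle mouse 1 the count was 3, with Tdo2 rising and Gpt and Prodh falling. Without the filter on dim genes, which adds genes to the adjustment, neither Gpt nor Dbt was called (adjusted p = 0.0772 for each) and Bckdhb was.

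The change of the testosterone effect between the times, after withdrawal minus at the end, was called in 0 of 36 members, while 2.19% of all genes were called. In the same limma fit 9 had an unadjusted p under 0.05, as did 1580 of all 7217 genes. Its median over the members was 0.17 and 29 of 36 were positive, against a median of -0.07 over all genes. Got1 and Mat1a were nearest to the threshold (log2 change 0.79 ± 0.23, adjusted p = 0.0831 for Got1 and log2 change 0.36 ± 0.11, adjusted p = 0.089 for Mat1a). Without testosterone mouse 3 of the end Got1 and Cth were called, and without testosterone mouse 1 of the withdrawal time Asl and Shmt1 were. The 13 decreases at the end are therefore not shown to have weakened, gene by gene, although 12 of the 13 were not called after withdrawal.

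In testosterone mice 7 of 36 members rose and 0 fell from the end to the withdrawal time, in a comparison that shares its mice with the results above. Over all genes 10.9% were called and 5.57% were called higher. The median log2 change was 0.18 and 30 of 36 were positive, against a median of -0.01 over all genes. Got1 rose 1.62-fold (log2 change 0.70 ± 0.17, adjusted p = 0.0149), Cth 1.46-fold (log2 change 0.55 ± 0.12, adjusted p = 0.0118), Gstk1 1.33-fold (log2 change 0.41 ± 0.10, adjusted p = 0.0137), Mat1a 1.27-fold (log2 change 0.34 ± 0.08, adjusted p = 0.012) and Bhmt 1.24-fold (log2 change 0.32 ± 0.09, adjusted p = 0.0436). For each of these the lowest withdrawn mouse was above the highest end mouse. Glud1 rose 1.23-fold (log2 change 0.30 ± 0.07, adjusted p = 0.0143) and Gldc 1.47-fold (log2 change 0.56 ± 0.14, adjusted p = 0.0238). The count was 12 without testosterone mouse 1 of the withdrawal time and 2 without mouse 3 of that time, 3 without mouse 2 of either time and 4 without mouse 1 of the end, 3 with arrays centred on their medians, and 0 with the actin covariate.

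Vehicle mice also differed between the times, and time and the mice's age cannot be told apart here. Of 36 members 4 rose and 1 fell (1 and 1 with arrays centred on their medians), where 17.8% of all genes were called and 11.0% were called higher. In the same comparison 10 of the 12 macrophage markers fell, and their part in these results was not tested. Gldc read 248, 155 and 213 at the end and 359, 423 and 401 after withdrawal and rose 1.95-fold (log2 change 0.96 ± 0.14, adjusted p = 0.000688), the largest change of a member between times. In testosterone mice Gldc read 238, 238 and 194 and 329, 329 and 324, so that it was higher at the later time under either treatment. Glud1 read 1705, 1652 and 1785 and 2133, 2245 and 2163 in vehicle mice and rose 1.27-fold (log2 change 0.35 ± 0.07, adjusted p = 0.0044). In testosterone mice Glud1 read 1845, 1847 and 1634 and 2087, 2215 and 2236.

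Uroc1 rose 1.39-fold (log2 change 0.48 ± 0.14, adjusted p = 0.0295) and Cbs 1.28-fold (log2 change 0.35 ± 0.11, adjusted p = 0.0449) between the times in vehicle mice, from 881, 719 and 935 to 1104, 1023 and 1089.6 for Cbs. The other probe set of each, tested by itself, was not called (0.48 ± 0.16, adjusted p = 0.0532 for Uroc1 and 0.09 ± 0.15, adjusted p = 0.721 for Cbs). Prodh fell 1.32-fold (log2 change -0.40 ± 0.13, adjusted p = 0.0447), with vehicle mouse 2 of the later time inside the earlier range. Without single mice the count of 5 was 2 to 4. Cbs lost its call without each of 5 mice, all but vehicle mouse 3 of the end (0.24 to 0.39), Prodh without vehicle mouse 1 or 3 of either time (-0.36 to -0.32), and Uroc1 without vehicle mouse 1 or 2 of the end or 2 or 3 of the withdrawal time (0.35 to 0.47).

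The wider set of enzymes, carriers and transporters around these pathways, 121 genes of which 87 could be tested, showed decreases at the end as well, with a few large increases. At the end 26 of 87 fell (29.9%, against 8.01% of all genes) and 6 rose (6.90%, against 9.42%), with a median log2 change of -0.13. After withdrawal 6 fell (6.90%, against 3.26%) and 3 rose (3.45%, against 2.74%). Of the ammonia and proline genes 5 of 10 fell at the end, among them Rhbg, an ammonium transporter (-1.12 ± 0.28), the arginine transporter Slc7a2 (-0.73 ± 0.16), the proline pathway enzyme Aldh4a1 (-0.72 ± 0.16) and ornithine aminotransferase Oat (-0.46 ± 0.10). Of these Slc7a2 fell after withdrawal too (-0.67 ± 0.16). Of the aromatic set 4 of 10 fell, among them Gch1, which starts synthesis of the cofactor of phenylalanine hydroxylase (-0.54 ± 0.08), the maleylacetoacetate isomerase Gstz1, which acts just before Fah (-0.47 ± 0.13), and the kynurenine aminotransferase Kyat3 (-0.43 ± 0.12). Ddc, which decarboxylates aromatic amino acids, rose, from 234, 206 and 277 to 378, 425 and 528 (0.89 ± 0.15).

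The sulfur set held the largest increase near the list. Csad, which leads from cysteine towards taurine, read 182, 147 and 265 in vehicle and 834, 940.2 and 975 in testosterone mice at the end and rose 4.76-fold (log2 change 2.25 ± 0.21, adjusted p = 5.79e-06). After withdrawal it read 293, 250.3 and 476 against 829, 827 and 780.4 and rose 2.48-fold (log2 change 1.31 ± 0.21, adjusted p = 0.00126), without overlap at either time. Of this set 3 of 20 rose and 5 fell at the end. The creatine-forming methyltransferase Gamt fell at both times (-0.92 ± 0.13 and -0.52 ± 0.13), the nicotinamide methyltransferase Nnmt fell at the end (-0.78 ± 0.11), and the glutathione synthesis enzyme Gclc rose at the end (0.69 ± 0.14). Sqor, a sulfide oxidising enzyme, fell after withdrawal (-0.34 ± 0.08). It was lower at the end too, at 1091, 1072 and 1136 in vehicle and 704, 705 and 666 in testosterone mice, without overlap.

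Of the branched-chain set 4 of 20 fell at the end and 0 rose. Mccc2, a subunit of the leucine pathway carboxylase that acts just after Ivd, read 95.6, 84.2 and 80.3 in vehicle and 38, 26.8 and 42.8 in testosterone mice and fell 2.46-fold (log2 change -1.30 ± 0.19, adjusted p = 0.00035). Echs1 (-0.55 ± 0.10), Mcee (-0.34 ± 0.10) and Hibch (-0.29 ± 0.09), later enzymes of the same degradation, fell less. After withdrawal 0 of these 20 were called, with 2 at an unadjusted p under 0.05, against 1485 of all 7217 genes.

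Of the histidine, lysine, glycine and serine set 3 of 17 fell and 2 rose at the end. Hao1, the peroxisomal oxidase that supplies the glyoxylate used by Agxt, read 575, 634 and 624 in vehicle and 1326, 1219 and 1331 in testosterone mice at the end, and 575, 428 and 549 and 1082, 960.3 and 973 after withdrawal. It rose at both times without overlap (1.08 ± 0.10 and 0.97 ± 0.10). Grhpr, which reduces glyoxylate, rose after withdrawal (0.54 ± 0.12). It was higher at the end too, at 767, 669 and 785 in vehicle and 1055, 1050 and 806 in testosterone mice, without overlap. Hal, which starts histidine breakdown, and the folate enzyme Mthfd1 fell at both times (-0.66 ± 0.14 and -0.55 ± 0.14 for Hal, -0.58 ± 0.10 and -0.48 ± 0.10 for Mthfd1), and Gcdh of lysine breakdown fell at the end (-0.40 ± 0.09).

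Of the transporters 5 of 10 fell at the end and 0 rose. The glutamate transporter Slc1a2 read 138, 132 and 94.9 in vehicle and 59.7, 51.9 and 59.3 in testosterone mice and fell 2.11-fold (log2 change -1.08 ± 0.16, adjusted p = 0.000343). The glutamine transporter Slc38a3 (-0.38 ± 0.08), the urea and glycerol channel Aqp9 (-0.36 ± 0.10) and the mitochondrial glutamate carrier Slc25a22 (-0.35 ± 0.11) fell too. After withdrawal the betaine transporter Slc6a12 was called (-0.57 ± 0.16).

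**Figure D4:**
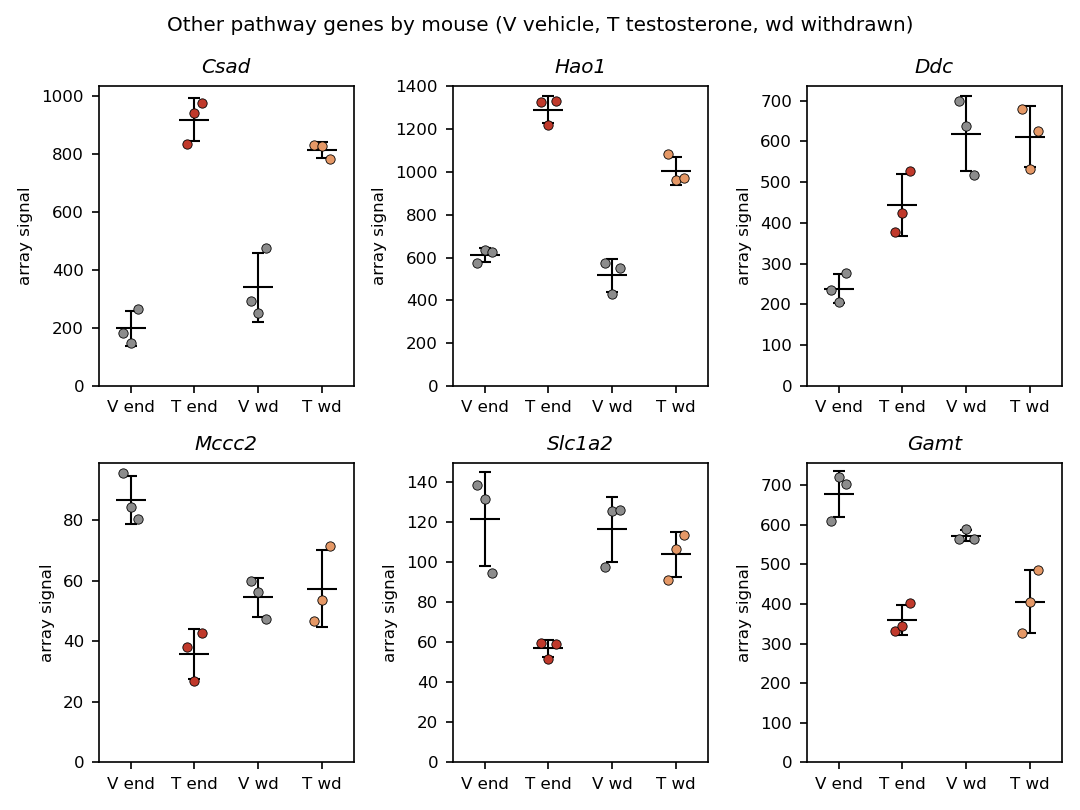
Array signal of 6 genes next to the list in each mouse, by group as above (V vehicle, T testosterone, wd withdrawn), with group means and 1 SD, on linear axes from 0. Csad and Hao1 are above all vehicle points of their time in both testosterone groups, Gamt is below them in both, and Ddc, Mccc2 and Slc1a2 separate the treatments at the end and not after withdrawal.

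Of 18 tested transcription factors and signals that are known to act on amino acid metabolism in liver, 5 rose and 1 fell at the end. The shares over all genes were 9.42% called higher and 8.01% called lower. Onecut1 (1.77 ± 0.30), Cebpb (0.71 ± 0.12), Foxa2 (0.58 ± 0.13), Creb3l3 (0.35 ± 0.11) and Hnf4a (0.31 ± 0.09) rose, all of them liver transcription factors, and Igf1, a growth hormone target, fell (-0.47 ± 0.08). With no adjustment 9 of the 18 had a p under 0.05, as did 2313 of all 7217 genes. The call of Hnf4a rests on its brightest probe set: the mean of its probe sets gave -0.25 (adjusted p = 0.138). After withdrawal Creb3l3 rose (0.45 ± 0.11) and Foxa2 fell (-0.89 ± 0.13). Foxa2 read 84.8, 63 and 72.6 and 99.9, 129 and 101 at the end, vehicle first, and 184, 177 and 205 and 99, 104 and 103 after withdrawal, with vehicle mice higher at the later time and testosterone mice overlapping between the times.

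Several of the smaller changes around the list depended on single mice. At the end Rhbg, Gstz1, Kyat3, Mcee, Hibch, Aqp9, Slc25a22, Creb3l3 and Hnf4a each lost their call without 1 or more of the 6 mice, Mcee without each of them (log2 change -0.36 to -0.33). After withdrawal Slc7a2, Gamt, Sqor, Hal, Grhpr, Mthfd1, Slc6a12 and Creb3l3 did so, Mthfd1 only without vehicle mouse 2 (-0.42, adjusted p = 0.0614). Csad, Hao1 and Foxa2 kept their calls at both times without each mouse in turn, as did Ddc, Gch1, Mccc2, Echs1 and Slc1a2 at the end. With the actin covariate Csad and Hao1 were still called at the end, and the other genes around the list named for that time were not.

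Probe sets of the same gene were also tested one by one, over 11136 probe sets, of which 19.6% were called at the end and 4.92% after withdrawal. By this count 16 of the 36 members had a called probe set at the end, 15 lower and 1 higher, which was Tdo2. After withdrawal 4 had one, with Gpt, Dbt and Shmt1 lower and Tdo2 higher. Otc had 3 probe sets that differed in sign at the end: -0.14 ± 0.06 for the one used, -0.34 ± 0.17 and 0.25 ± 0.11, none of them called. Of the probe sets used for the 36 members, 30 have the plain suffix of a set designed for 1 transcript and 6 have a suffix for probes shared between transcripts or genes.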

How the data were processed

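The members and the other gene lists were chosen with earlier results of these data known. Per the labels, 5 µg of total liver RNA per mouse was labelled by a one-cycle kit and hybridised to 1 array. Each probe set has 1 deposited intensity per array on a linear scale. Of software, GCOS and MAS5 are listed in the submitters' processing notes, with versions not given in the sources used here. Detection calls and scan dates were not analysed here.

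Control probe sets (64 of 22690) were set aside, and only the 20380 probe sets with 1 gene symbol were named. Signals under the 25th percentile (4.84) were set to it before log2, a gene was represented by its brightest probe set on the log2 scale, and genes above the array median on at least 3 of 12 arrays were kept. Tests used limma 3.58.1 in R 4.3.3 with 4 group means and a variance trend on all arrays, two-sided, with Benjamini-Hochberg adjustment over 7217 genes and calls at an adjusted p under 0.05, on code tested on simulated data. Log2 changes carry the standard error of that fit, folds are ratios of geometric means, and means ± SD are of the deposited intensities. Precision is limited by having 3 arrays per group. Actin ratios were compared by exact permutation tests. Groups come from the sample titles.

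Every called member is named with its values. Of the genes around the list (121 enzymes, carriers and transporters in 6 groups) up to 4 called per group and comparison are named by size of change, and of 20 regulators up to 8. Alternatives changed the floor, the filter, the scaling, the choice of probe set, the variance trend, the actin ratio as a covariate, the replicate number as a block, a 2-fold minimum, the arrays fitted and single mice; testing each probe set by itself was added after seeing the data.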

Additional observations from a re-analysis of the deposited data

Results flagged for a closer look

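For 8 genes around the list the effect of testosterone differed between the times by limma's test of the difference (after withdrawal minus at the end, adjusted over all genes). No member of the list was among them. Of the pathway genes, Ddc had a log2 change of 0.89 ± 0.15 at the end and -0.01 ± 0.15 after withdrawal, a difference of -0.90 ± 0.21 (adjusted p = 0.0415). Gch1 went the other way, from -0.54 to 0.11, a difference of 0.64 ± 0.12 (adjusted p = 0.0153). Mccc2 went from -1.30 to 0.06, a difference of 1.35 ± 0.27 (adjusted p = 0.0206). Echs1, an enzyme shared with fatty acid oxidation, went from -0.55 to 0.03, a difference of 0.58 ± 0.14 (adjusted p = 0.0415). Slc1a2 went from -1.08 to -0.16, a difference of 0.92 ± 0.22 (adjusted p = 0.0444).

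Of the regulators, Foxa2 rose at the end (0.58) and fell after withdrawal (-0.89), a difference of -1.47 ± 0.19 (adjusted p = 0.00107). Cebpb had 0.71 at the end and -0.09 after withdrawal, a difference of -0.79 ± 0.17 (adjusted p = 0.0305). Igf1 had -0.47 and 0.06, a difference of 0.53 ± 0.11 (adjusted p = 0.0268), which turned to -0.13 (adjusted p = 0.584) with probe sets of the shared suffixes left out. Foxa2 alone of the 8 kept its call of the difference without each of the 12 mice in turn, and none of the 8 kept it with the actin covariate.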

How the results depend on the processing

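Counts of called members are given over settings, beside 13, 2, 0, 5 and 7 for the end, the withdrawal time, the difference between the effects, vehicle mice between times and testosterone mice between times. With the actin ratio as a covariate they were 0, 1, 0, 2 and 0. With median centring they were 8, 1, 0, 2 and 3, and with a 2-fold minimum 1, 0, 0, 0 and 0. Without the filter on dim genes the last 4 were 1 (Bckdhb, with Gpt and Dbt both lost), 0, 2 and 4 (3 of them among the 7), and without the variance trend vehicle mice gave 2 and testosterone mice 4. The mean of all probe sets gave 4 after withdrawal, and leaving out shared suffixes 1. Each probe set tested by itself gave 4 after withdrawal, 2 for the difference (Got2 and Shmt1) and 8 for vehicle mice. Fitting only the groups compared gave 2 for vehicle mice and cannot be applied to the difference, which needs all arrays.

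Without 1 mouse in turn the counts were 9 to 12, 0 to 3, 0 to 2, 2 to 4 and 2 to 12. The replicate number as a block gave 12, 2, 0, 3 and 7, and same-numbered mice did not deviate together (r = -0.19 to 0.01), so the numbers were not taken as pairs. Median centring moved the median of all genes between times in vehicle mice from 0.06 to -0.04. No called member comparison changed sign: of 509 values of 27 such comparisons, 360 kept their call and 149 lost it. Probe sets tested one by one are not in that count. At the end those of Cbs (0.05 and -0.39) and Otc (-0.14 and 0.25 among them) differed in sign, without a call. Among regulators Hnf4a turned to -0.25 at the end with the mean of its probe sets (adjusted p = 0.138), and the difference of Igf1 to -0.13 without shared suffixes (adjusted p = 0.584). The causes were not tested. With 3 mice per group the smallest called change of a member was 0.30 on the log2 scale (Glud1, testosterone mice between times), and dim probe sets such as that of Kynu gave no test.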

Other observations

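Between the times, Ddc and Ethe1 of the pathway genes moved further in vehicle mice than any tested member. Ethe1, which oxidises persulfide in mitochondria, read 340.3, 260.1 and 402 at the end and 694, 731 and 627 after withdrawal in vehicle mice, a log2 change of 1.05 ± 0.16. In testosterone mice it read 310.03, 430.1 and 500.3 and 765, 757 and 740.1 (0.90 ± 0.16), so that under either treatment all later mice were above all earlier ones. Mpst, a sulfur transferase acting on a product of cysteine, read 63.2, 62.2 and 85.2 and 131, 142 and 107 in vehicle mice (0.86 ± 0.15). Ddc rose by 1.37 ± 0.15 in vehicle mice between the times, Gclc by 0.71 ± 0.14 and Csad by 0.77 ± 0.21, while Gch1 (-0.43 ± 0.08) and Mccc2 (-0.67 ± 0.19) fell. Csad lost this call without vehicle mouse 1 or 2 of the end or 3 of the withdrawal time (0.50 to 0.73), and Mccc2 without vehicle mouse 1 of the end or 2 or 3 of the withdrawal time (-0.70 to -0.58). With the actin covariate Ddc, Ethe1, Mpst and Gch1 were still called in vehicle mice, and Gclc, Csad and Mccc2 were not.

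In testosterone mice the mitochondrial glutamate carrier Slc25a22 rose between the times (0.76 ± 0.11), as did Slc1a2 (0.86 ± 0.16) and Oat (0.58 ± 0.10). Slc38a3 fell in testosterone mice (-0.34 ± 0.08) and in vehicle mice (-0.54 ± 0.08), from 2614, 2549 and 2963 to 1816, 1900.5 and 1861 in the latter. Without testosterone mouse 3 of the end its call in testosterone mice was lost (-0.27), and with the actin covariate only Slc25a22 of the genes named here was still called in testosterone mice. Of the 87 pathway genes 11 rose and 8 fell in vehicle mice (21.8% called, against 17.8% of all genes), and 11 rose and 4 fell in testosterone mice (17.2%, against 10.9%).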
